A study of Mus musculus with 11 samples.

Results

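The genes described are 10 components of Wnt signalling measured in sorted mouse liver cells, taken by symbol from the platform's gene annotation. They are 6 secreted ligands (Wnt2, Wnt4, Wnt7a, Wnt7b, Wnt9b and Rspo3), 3 membrane proteins of the R-spondin axis (Lgr4, Lgr5 and Rnf43) and the transcriptional target Axin2. All 10 had a feature among the 23185 genes measured. YFP, a yellow fluorescent protein, marked biliary epithelial cells and their descendants, and non-parenchymal cells were sorted by its presence.

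For YFP+ CDE (3 arrays) the feed lacked choline and contained ethionine (the CDE diet), a model of fatty hepatocyte injury. YFP+ DDC (3 arrays) came from mice fed 3,5-diethoxycarbonyl-1,4-dihydrocollidine, a model of cholestatic injury, for 5 weeks. YFP+ UTR (2 arrays) came from untreated mice, and YFP- (3 arrays) was the unlabelled fraction. YFP- is taken here as coming from untreated mice, though its sample titles name no diet. The labels name neither the driver of the lineage mark nor the age, sex or strain of the animals, and their single protocol text, copied to every sample, describes the DDC diet only. They call all samples liver progenitor cells, YFP- included, and do not say whether arrays of a group were separate animals. The p-values therefore cover only array-to-array spread, which is possibly technical.

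Wnt proteins are secreted lipid-modified signals that bind Frizzled receptors and their LRP co-receptors and stabilise beta-catenin, which then acts with TCF and LEF factors on target genes. R-spondins raise the sensitivity of a cell to Wnt: together with LGR receptors they remove the ubiquitin ligases RNF43 and ZNRF3, which otherwise clear Frizzled from the surface. In the liver, endothelial cells of the central vein are a known source of Wnt2, Wnt9b and Rspo3, and this supply sets the perivenous programme of hepatocytes.

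Values are the deposited log expression values, taken as log2, so a difference of 1 is a doubling. They ran from 2.55 to 13.57 over the whole table, and a group mean under 4.33, the lower quartile of all values, is called dim. A difference was called where its limma p-value, adjusted over all 23185 genes, was under 0.05. YFP+ arrays correlated with each other at 0.98 to 0.991 across genes, and YFP- arrays at 0.888 to 0.925. The YFP+ label fitted its markers: all 9 biliary markers measured were higher in UTR than in YFP-, with a list mean of 10.02 to 10.45 on the 8 YFP+ arrays, against 7.94, 4.86 and 4.79 on the YFP- arrays. The YFP- arrays were mixed and unlike each other, with endothelial, macrophage and lymphocyte markers at different levels on each. Because each sample is a mixture, fewer cells of a type and less RNA per cell cannot be told apart in any of the differences given here.

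**Figure D1:**
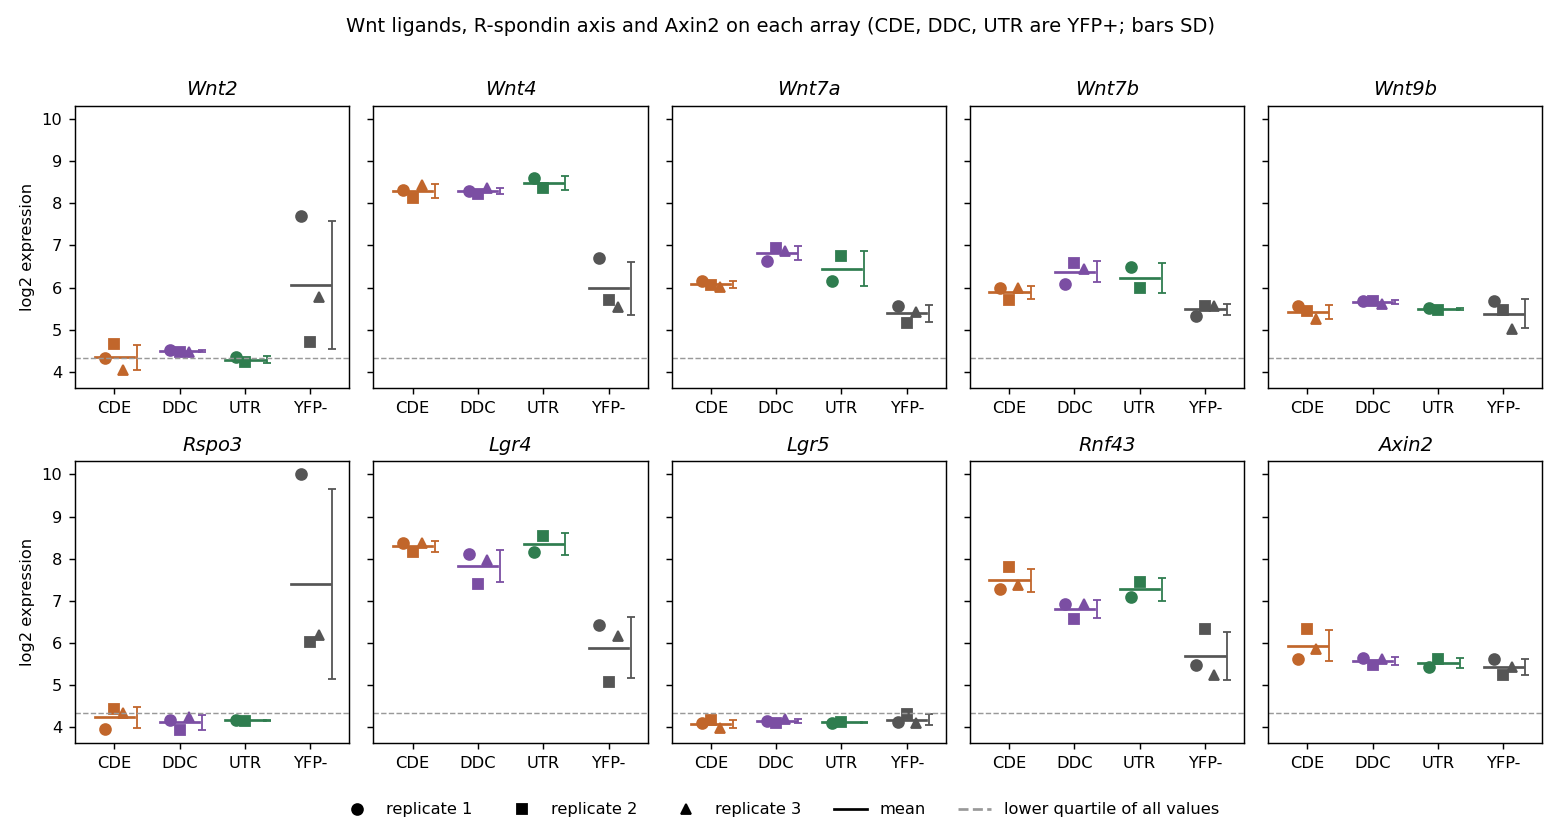
Log2 expression of the 10 genes on each of the 11 arrays, in panels by gene, with groups on the x axis; points are arrays, horizontal lines group means and vertical bars SD. Wnt4, Lgr4 and Rnf43 lie higher on all 8 YFP+ arrays than on the 3 YFP- arrays, Rspo3 lies lower, and Lgr5 stays under the dashed line at 4.33 in every group mean.

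The ligands fell into separate groups by the cells that held them. Wnt4, Wnt7a and Wnt7b were higher in the biliary-lineage cells, Rspo3 was higher in the YFP- fraction, and Wnt9b was called in neither direction. Wnt2 was higher in YFP- than in the mean of the YFP+ groups, but was not called against UTR alone. Between UTR and YFP-, 5 of the 10 genes were higher and 1 was lower, where 10.4% of all genes were called higher and 8.46% lower (18.9% in either direction). Between the mean of the 3 YFP+ groups and YFP-, 5 were higher and 2 lower, against backgrounds of 16.3% and 14.3% (30.5% in either direction). Both comparisons use the same YFP- arrays, so they are not independent of each other. In a fit of only the 5 UTR and YFP- arrays Wnt4 alone was called, and Wnt7a, Wnt7b, Rspo3, Lgr4 and Rnf43 had limma adjusted p = 0.0618 to 0.269 at the same differences.

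Wnt4, a ligand known in several epithelia for signalling both with and without beta-catenin, showed the clearest biliary expression. It read 8.31, 8.12 and 8.43 on the CDE arrays, 8.28, 8.22 and 8.36 on the DDC arrays, 8.60 and 8.37 on the UTR arrays, and 6.71, 5.71 and 5.53 on the YFP- arrays. All 8 YFP+ arrays lay above all 3 YFP- arrays, and the YFP+ groups overlapped except DDC with UTR. UTR exceeded YFP- by 2.50 ± 0.30 (SE), a 5.65-fold difference (limma adjusted p = 0.000557). The mean of the YFP+ groups exceeded YFP- by 2.37 ± 0.22 (limma adjusted p = 6.62e-05). Its call held in all 17 alternatives tried for UTR against YFP-, at differences of 2.27 to 2.86.

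Wnt7a and Wnt7b are close paralogues that act as epithelial Wnt signals. Wnt7a read 6.15, 6.07 and 6.003 in CDE, 6.63, 6.95 and 6.86 in DDC, 6.15 and 6.74 in UTR, and 5.56, 5.16 and 5.43 in YFP-. No YFP+ array reached down to the YFP- range, and the DDC arrays lay above the CDE arrays. UTR was higher than YFP- by 1.06 ± 0.19 (2.09-fold, limma adjusted p = 0.00442), and the YFP+ mean by 1.06 ± 0.14 (adjusted p = 0.000505). Wnt7b read 5.98, 5.69 and 5.98 in CDE, 6.09, 6.58 and 6.44 in DDC, 6.48 and 5.98 in UTR, and 5.33, 5.56 and 5.55 in YFP-. The groups again did not overlap between YFP+ and YFP-, though the lowest CDE array and the highest YFP- array were 5.69 and 5.56. UTR exceeded YFP- by 0.75 ± 0.20 (1.68-fold, limma adjusted p = 0.0265). Without UTR replicate 1 that difference was 0.49 and was not called (adjusted p = 0.223), nor was it called with weights per group (adjusted p = 0.114) or a replicate block (adjusted p = 0.0538). The YFP+ mean was higher by 0.68 ± 0.15 (adjusted p = 0.00687), and this call was also lost with weights per group (adjusted p = 0.103).

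Rspo3, the R-spondin that central vein endothelium supplies to hepatocytes, went the other way. It read 3.95, 4.42 and 4.34 in CDE, 4.18, 3.92 and 4.25 in DDC, 4.17 and 4.16 in UTR, and 10.005, 6.01 and 6.18 in YFP-. Every YFP+ group mean was dim, every YFP- array was above that level, and YFP- replicate 1 stood far above the other two. UTR was lower than YFP-, a difference of -3.24 ± 0.98 (limma adjusted p = 0.0476), and the YFP+ mean was lower too, with a difference of -3.23 ± 0.73 (adjusted p = 0.0088). Without YFP- replicate 1 the differences were -1.93 and -1.92 and both were called, with SE of 0.18 and 0.14 (adjusted p = 8.22e-05 and 1.38e-05). The UTR call was lost when any 1 of the CDE, DDC or UTR arrays was left out (adjusted p = 0.0712 to 0.188), and with a replicate block (adjusted p = 0.0644), whereas the call on the YFP+ mean held in all 16 alternatives.

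Wnt2, the endothelial ligand that is paired with Wnt9b around the central vein, was likewise near the array's low end in biliary-lineage cells. It read 4.32, 4.65 and 4.05 in CDE, 4.52, 4.48 and 4.47 in DDC, 4.34 and 4.23 in UTR, and 7.70, 4.70 and 5.78 in YFP-. The lowest YFP- array, 4.70, was just above the highest YFP+ array, 4.65. UTR against YFP- gave -1.77 ± 0.67, which was not called (limma adjusted p = 0.101), while the YFP+ mean was lower than YFP-, a difference of -1.69 ± 0.50 (adjusted p = 0.0303). Without YFP- replicate 1 these were -0.95 (adjusted p = 0.0605) and -0.87 (adjusted p = 0.0288). Without YFP- replicate 2 the UTR difference was -2.45 and was called (adjusted p = 0.0088). The call on the YFP+ mean was lost in 8 of 16 alternatives, each leaving out 1 array (CDE replicate 1 or 3, any DDC or UTR array, or YFP- replicate 3), at adjusted p = 0.0506 to 0.0631.

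Wnt9b, the other central vein ligand, did not follow Wnt2 and Rspo3. It read 5.57, 5.43 and 5.25 in CDE, 5.69, 5.68 and 5.61 in DDC, 5.52 and 5.47 in UTR, and 5.67, 5.46 and 5.02 in YFP-. All groups overlapped YFP-. UTR minus YFP- was 0.11 ± 0.18 with a 95% interval of -0.30 to 0.52 (limma adjusted p = 0.723), so a difference as large as that of Wnt2 lay outside the interval.

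YFP- replicate 1, the array with the highest Rspo3 and Wnt2, was also the array with the highest endothelial markers. The mean of 12 liver endothelial markers was 5.07 to 5.79 on the YFP+ arrays, against 11.66 on YFP- replicate 1 and 9.99 and 10.36 on the other YFP- arrays. For the 4 central vein markers outside the ligand set (Thbd, Cdh13, Selp and Kit) the means were 5.32 to 5.61 on the YFP+ arrays, against 9.46 on YFP- replicate 1 and 6.87 and 7.18 on the other YFP- arrays. Thbd, the endothelial thrombomodulin, read at most 4.90 on a YFP+ array, against 9.70, 6.74 and 6.93 on the YFP- arrays. The 12 stellate cell and portal fibroblast genes averaged 4.95 to 5.43 on the YFP+ arrays, against 7.26, 5.99 and 5.90 on the YFP- arrays, highest on the same replicate 1. Of the YFP- arrays, that replicate also had the highest mean of the 9 biliary markers, 7.94. All 12 endothelial markers were lower in UTR than in YFP-, and the part of these cell types in the Rspo3 and Wnt2 values was not tested.

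**Figure D2:**
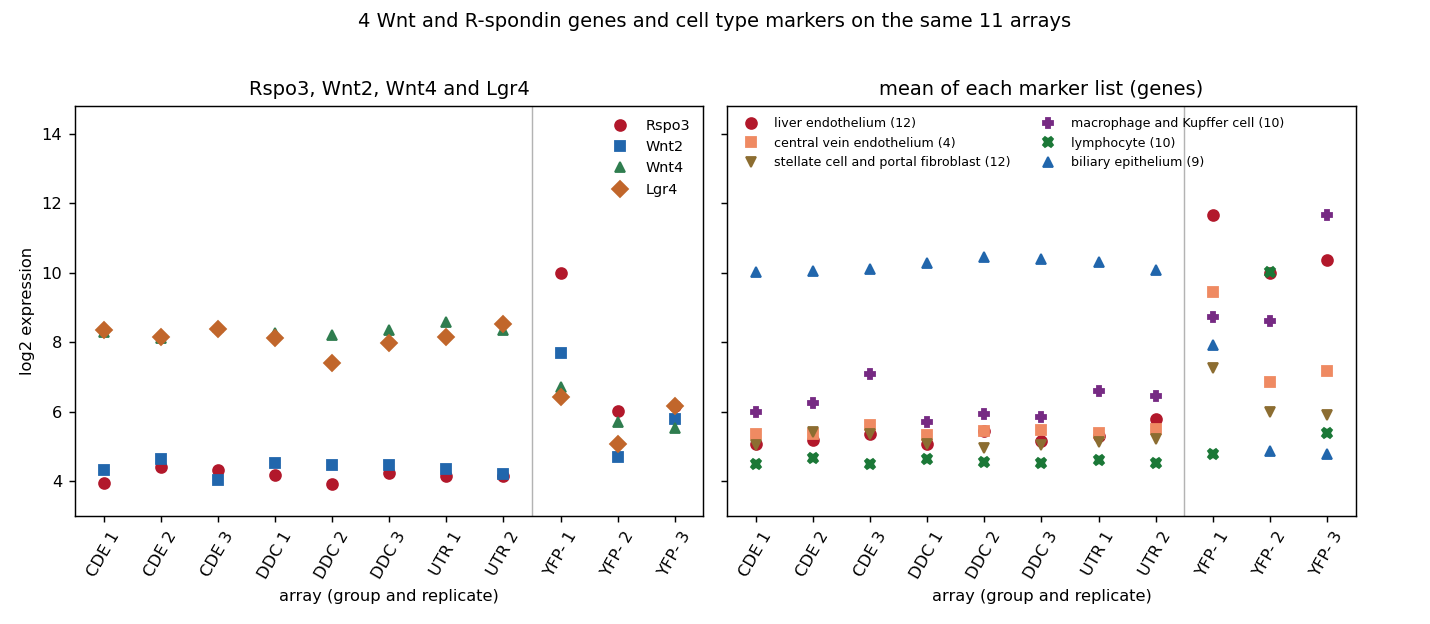
Left, log2 expression of Rspo3, Wnt2, Wnt4 and Lgr4 on each array; right, the mean log2 expression of 6 cell type marker lists on the same arrays, with the number of genes in brackets. YFP- replicate 1 has the highest Rspo3 (10.005) and Wnt2 (7.70) and also the highest liver endothelial (11.66) and central vein (9.46) list means.

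The membrane proteins of the R-spondin axis sat with the biliary ligands, apart from Lgr5. Lgr4, the broadly expressed R-spondin receptor, read 8.36, 8.15 and 8.38 in CDE, 8.12, 7.40 and 7.98 in DDC, 8.16 and 8.54 in UTR, and 6.42, 5.08 and 6.17 in YFP-. All 8 YFP+ arrays were above the 3 YFP- arrays by close to 1 log2 unit or more. UTR exceeded YFP- by 2.46 ± 0.37 (5.50-fold, limma adjusted p = 0.00186) and the YFP+ mean by 2.27 ± 0.28 (adjusted p = 0.000294).

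Rnf43, the ubiquitin ligase that removes Frizzled receptors and is itself removed by R-spondin with LGR, read 7.28, 7.80 and 7.37 in CDE, 6.93, 6.56 and 6.93 in DDC, 7.08 and 7.46 in UTR, and 5.48, 6.32 and 5.24 in YFP-. The lowest YFP+ array (6.56, DDC) was above the highest YFP- array (6.32). UTR exceeded YFP- by 1.59 ± 0.31 (3.01-fold, limma adjusted p = 0.00646), and the YFP+ mean by 1.51 ± 0.23 (adjusted p = 0.00103). Without UTR replicate 2 the UTR difference was 1.40 and was not called (adjusted p = 0.0671).

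Lgr5, the stem cell receptor of the intestinal crypt, was at the low end of the scale on every array. It read 4.09, 4.18 and 3.99 in CDE, 4.15, 4.11 and 4.18 in DDC, 4.11 and 4.12 in UTR, and 4.12, 4.32 and 4.09 in YFP-. All 4 group means were dim and all groups overlapped. UTR minus YFP- was -0.06 ± 0.11 (limma adjusted p = 0.743), with a 95% interval of -0.31 to 0.18.

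Axin2, a negative-feedback scaffold of the destruction complex that is used as a readout of beta-catenin activity, did not follow Lgr4 and Rnf43. It read 5.61, 6.34 and 5.85 in CDE, 5.64, 5.47 and 5.61 in DDC, 5.43 and 5.61 in UTR, and 5.61, 5.23 and 5.44 in YFP-. Only 2 CDE arrays lay above all the others. UTR minus YFP- was 0.09 ± 0.20 (95% interval -0.37 to 0.55, limma adjusted p = 0.8), and the YFP+ mean minus YFP- was 0.25 ± 0.15 (adjusted p = 0.252).

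**Figure D3:**
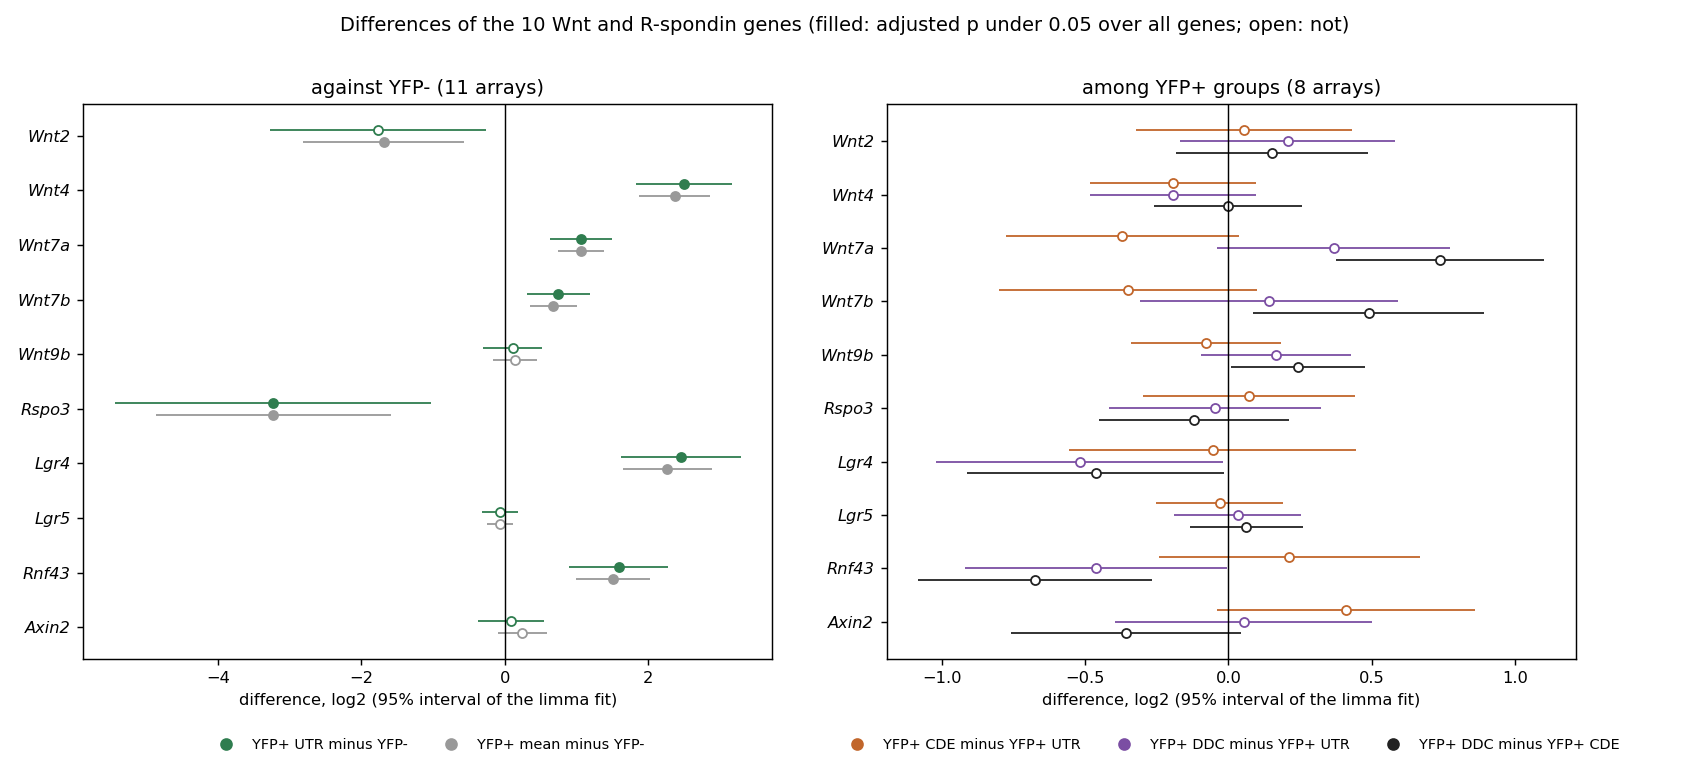
Differences in log2 expression of the 10 genes with 95% intervals of the limma fits, against YFP- on the left and among the YFP+ groups on the right; filled points have an adjusted p under 0.05 over all genes. On the left Wnt4, Wnt7a, Wnt7b, Lgr4 and Rnf43 lie above 0 and Rspo3 below; on the right all points are open and the largest is Wnt7a in DDC minus CDE (0.74).

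None of the 10 genes passed the threshold under either injury diet in YFP+ cells. For CDE against UTR the count was 0 of 10 genes, with 0% of all genes called (1492 of 23185 had an unadjusted p under 0.05, none of them among the 10). The lowest adjusted p of the 10 was 0.801, shared by Wnt7a (-0.37 ± 0.18) and Axin2 (0.41 ± 0.20). For Axin2 the 95% interval ran from -0.04 to 0.86. Wnt4 differed by -0.19 ± 0.13 and Lgr4 by -0.06 ± 0.22 (limma adjusted p = 0.892 and 0.995).

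For DDC against UTR the count was again 0 of 10, with 0.16% of all genes called (37 genes; 2417 at an unadjusted p under 0.05). Lgr4 and Rnf43 were the only ones of the 10 at an unadjusted p under 0.05, each with DDC below UTR on every array. Lgr4 differed by -0.52 ± 0.22 (unadjusted p = 0.0441, limma adjusted p = 0.462) and Rnf43 by -0.46 ± 0.20 (unadjusted p = 0.048, adjusted p = 0.475). Wnt2, Wnt4 and Wnt9b also did not overlap between DDC and UTR, at differences of 0.21, -0.20 and 0.17. The share of all genes without overlap between DDC and UTR was not counted, so the separation is a description only. The mean of 10 macrophage markers was 5.72, 5.95 and 5.87 on the DDC arrays and 6.60 and 6.47 on the UTR arrays, with 0 of them called, and its part in these differences was not tested. This comparison and that of CDE use the same 2 UTR arrays.

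DDC against CDE gave 0 of 10 genes called as well, with 1.16% of all genes called (269 genes; 3555 at an unadjusted p under 0.05). Of the 10, 5 had an unadjusted p under 0.05, and in all 5 the DDC and CDE arrays did not overlap. Among these 5, picked by their p-value, the differences were positive for the ligands and negative for the membrane proteins. Of all 10 genes, the difference was positive for 4 of the 6 ligands, not for Wnt4 or Rspo3. It was positive for 1 of the other 4 genes, the membrane protein Lgr5. The share of all genes without overlap between DDC and CDE was not counted, so the separation is a description only. Wnt7a averaged 6.81 ± 0.16 in DDC and 6.07 ± 0.07 in CDE (SD, n = 3 each), a difference of 0.74 ± 0.16 (1.67-fold, limma adjusted p = 0.0738). It was called when either UTR array was left out of the shared fit (adjusted p = 0.04 for each), which does not alter its difference of 0.74. Wnt7b differed by 0.49 ± 0.18 (adjusted p = 0.24) and Wnt9b by 0.24 ± 0.10 (adjusted p = 0.308).

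Rnf43 averaged 6.81 ± 0.21 in DDC and 7.48 ± 0.28 in CDE (SD, n = 3 each), a difference of -0.67 ± 0.18 (limma adjusted p = 0.124). Lgr4 averaged 7.83 ± 0.38 in DDC and 8.29 ± 0.13 in CDE, a difference of -0.46 ± 0.19 (adjusted p = 0.311). Axin2 differed by -0.36 ± 0.17 (adjusted p = 0.379) and its DDC and CDE arrays overlapped. For Wnt4 the difference was near 0, with a 95% interval of -0.26 to 0.26. In the order of group means DDC was highest and CDE lowest of the YFP+ groups for Wnt7a, Wnt7b and Wnt9b, and CDE was highest and DDC lowest for Rnf43, with UTR between them and none of these neighbours called.

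Means of some marker lists also differed between the diets. The 9 biliary markers averaged 10.27, 10.45 and 10.39 on the DDC arrays and 10.02, 10.06 and 10.12 on the CDE arrays, with no overlap. Of these markers 6 had higher means in DDC (median difference 0.21), 3 had an unadjusted p under 0.05 and 0 were called. The mean of the 10 macrophage markers was 5.72, 5.95 and 5.87 on the DDC arrays and 5.99, 6.26 and 7.09 on the CDE arrays, with no overlap. All 10 had lower means in DDC than in CDE (median difference -0.52), 3 at an unadjusted p under 0.05 and 0 called. The 12 hepatocyte markers averaged 8.29, 8.10 and 8.26 on the DDC arrays and 8.25, 8.83 and 8.18 on the CDE arrays, which overlapped, with a median difference of -0.30. Of them 1 was called, albumin, Alb, which averaged 11.80 in DDC and 12.54 in CDE (-0.73 ± 0.09, limma adjusted p = 0.0162). The part of these cell types in the DDC against CDE differences was not tested.

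Other genes of the pathway, 97 measured of 99 listed and counted apart from the 10, were compared in the same way. In UTR against YFP- 19 were higher and 2 lower, beside 10.4% and 8.46% of all genes, with a median difference of 0.23 over the list and -0.01 over all genes. The Wnt receptors had 5 of 18 higher. Ror1, a receptor of Wnt5a, averaged 9.56 in UTR and 5.92 in YFP- (3.64 ± 0.41, limma adjusted p = 0.000436), and Fzd3, a Frizzled receptor, 7.54 in UTR and 4.48 in YFP- (3.05 ± 0.30, adjusted p = 0.000233). Ptk7, a co-receptor of planar polarity signalling, and Fzd5 were higher by 1.42 ± 0.26 and 1.18 ± 0.18.

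Znrf3, the paralogue of Rnf43 with the same action on Frizzled, was higher as well. It read 8.23, 8.10 and 8.20 in CDE, 7.56, 7.99 and 8.15 in DDC, 8.19 and 8.38 in UTR, and 5.59, 6.68 and 6.60 in YFP-. UTR exceeded YFP- by 2.00 ± 0.30 (limma adjusted p = 0.00201), and of the 5 other R-spondins and receptors it was the only one called in that comparison. Rspo1, another R-spondin, differed by -0.03 ± 0.18 (adjusted p = 0.922), and Lgr6, the receptor nearest to Lgr5, by 0.67 ± 0.23 (adjusted p = 0.0794).

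Among the 14 other ligands only Wnt10a was called, higher by 1.02 ± 0.24 (limma adjusted p = 0.0163), and without UTR replicate 1 it was 0.59 and was not called. Neither secretion gene was called: Porcn, the acyltransferase that lipidates Wnt proteins, differed by 1.10 ± 0.40 (adjusted p = 0.0941) and Wls, their carrier to the surface, by -0.32 ± 0.31 (adjusted p = 0.533). Of 19 inhibitors 2 were higher, a share close to the 10.4% of all genes. They were Trabd2b (2.04 ± 0.24), a protease that inactivates Wnt proteins, and Sfrp5 (0.97 ± 0.23), a secreted Frizzled-related decoy. Sfrp5 was not called without UTR replicate 1 (1.00) or 2 (0.93).

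Downstream of the receptors, 2 of 11 cytoplasmic components were higher, beside 10.4% of all genes. They were the adaptor Dvl3 (1.29 ± 0.15) and beta-catenin itself, Ctnnb1 (1.35 ± 0.34). The Ctnnb1 call was lost without UTR replicate 1 (1.32), UTR replicate 2 (1.38) or YFP- replicate 3 (1.20). Of 7 nuclear factors 2 were higher, the beta-catenin co-activators Pygo1 (2.78 ± 0.52) and Bcl9l (1.35 ± 0.30). Both were lost without UTR replicate 2, at 2.46 and 1.20.

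Target genes were counted in 2 classes, beside 10.4% of all genes higher and 8.46% lower. Of 12 Wnt targets listed apart from those of perivenous hepatocytes, 6 were higher in UTR than in YFP- and 0 lower. Sox9, a biliary transcription factor that is also a marker of these cells, was higher by 5.25 ± 0.72, the stem cell antigen Prom1 by 4.41 ± 0.76, the receptor Tnfrsf19 by 3.37 ± 0.36 and cyclin D1, Ccnd1, by 1.43 ± 0.25 (limma adjusted p = 0.00115, 0.00361, 0.000366 and 0.00376). Of 9 perivenous hepatocyte targets 0 were higher and 2 lower, Cyp2e1, an alcohol-inducible cytochrome P450 (-2.83 ± 0.84), and Oat, a mitochondrial aminotransferase (-2.65 ± 0.35). Cyp2e1 read 10.13, 6.43 and 7.64 on the YFP- arrays, highest on the same replicate 1 as Rspo3. Without that array the Cyp2e1 difference was -1.80 and was called. Its call was lost when any 1 of the 8 YFP+ arrays or YFP- replicate 3 was left out (adjusted p = 0.0624 to 0.186), and with a replicate block (adjusted p = 0.0642). The 12 hepatocyte markers, a list that itself includes Cyp2e1 and Glul, averaged 8.10 to 8.83 on the YFP+ arrays and 7.91 to 8.70 on the YFP- arrays. That mean joins opposite directions, since 4 of the 12 were higher in UTR than in YFP- and 1, Cyp2e1, was lower. The part of hepatocytes in these values was not tested.

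In the YFP+ mean against YFP- 35 of the 97 genes were called, 29 higher and 6 lower, beside 16.3% and 14.3% of all genes. The 6 lower ones were Cyp2e1, Oat and 4 not called in UTR against YFP-. Adgra2, a receptor that in mouse brain endothelium acts with Wnt7a and Wnt7b, averaged 6.05 in the YFP+ groups and 7.54 in YFP- (-1.49 ± 0.39, limma adjusted p = 0.019). Without YFP- replicate 1 its difference was -0.78 and was called. Glul, the glutamine synthetase of perivenous hepatocytes, differed by -1.21 ± 0.28 and Apc, a scaffold of the destruction complex, by -0.81 ± 0.17 (adjusted p = 0.00942 and 0.00643). Nkd1, an inhibitor that binds Dishevelled, differed by -0.65 ± 0.17 (adjusted p = 0.0188). Nkd1 was not called when YFP- replicate 1 was left out (-0.47, limma adjusted p = 0.0621), nor under weights per group (adjusted p = 0.13). Of the 9 perivenous hepatocyte targets 3 were lower and 1 was higher, with a median difference of 0.08. The higher one was Rhbg (0.41 ± 0.11, limma adjusted p = 0.0204), whose call was lost in 4 of 16 alternatives.

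**Figure D4:**
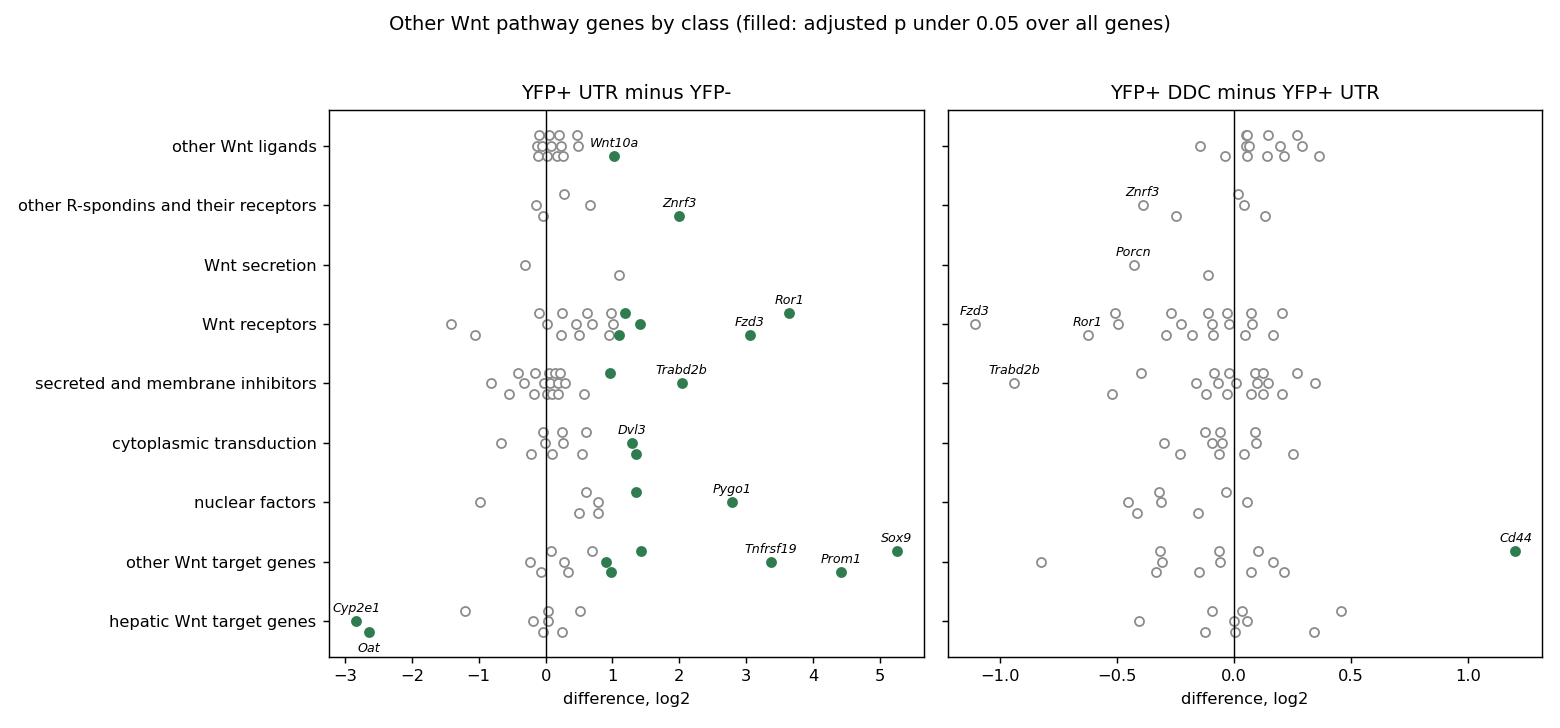
Differences in log2 expression of the 97 other Wnt pathway genes by class, for UTR minus YFP- on the left and DDC minus UTR on the right; filled points have an adjusted p under 0.05 over all genes. On the left 19 genes are higher and 2 lower, led by Sox9 (5.25); on the right Cd44 (1.20) is the single filled point.

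TCF and LEF factors bind a short core. The motif CTTTGAA was searched together with the related CTTTGAT, the related CTTTGTA and the related CTTTGTT on both strands of promoter windows of 300 bases from RefSeq (GRCm38.p6). They were found in 0 of 8 windows of 7 of the 10 genes (Wnt2, Wnt4, Wnt7a, Wnt9b, Lgr4, Rnf43 with 2 windows, and Axin2), in 6 of 18 windows of the target classes (33.3%) and in 16.9% of all 32851 windows. Wnt7b, Rspo3 and Lgr5 were not searched. In the target classes the windows with a match were those of Cyp1a2, Cyp2e1, Lect2, Slc1a2, Sp5 and Tnfrsf19. Only Tnfrsf19, which was higher, and Cyp2e1, which was lower, were called in UTR against YFP-. The stretches around the motif in these 2 promoters are shown 5′ to 3′ on the gene's strand, with the motif letters in capitals. Tnfrsf19 lies on the minus strand, at chr14:61038171-61038200, and holds the reverse complement of CTTTGAT. Cyp2e1 lies on the plus strand, at chr7:140763673-140763702, and holds CTTTGAA.
Tnfrsf19: ctgaatgggggATCAAAGtgacaaactaga
Cyp2e1: caagggtcagcCTTTGAAatgatagccaac
A match is a description of the letters and not of binding.

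Under the diets 1 of the 97 genes was called. Cd44, a hyaluronan receptor and a Wnt target of the intestine, read 9.37, 9.62 and 9.59 in CDE, 10.27, 10.28 and 10.27 in DDC, and 9.23 and 8.91 in UTR. DDC exceeded UTR by 1.20 ± 0.13 (limma adjusted p = 0.0308) and exceeded CDE by 0.75 ± 0.11 (adjusted p = 0.0293). None of these YFP+ groups overlapped each other, while the YFP- arrays read 8.07, 9.68 and 10.17 and overlapped CDE and UTR. The DDC against UTR call was lost without CDE replicate 3, any DDC array or UTR replicate 2 (adjusted p = 0.0636 to 0.134), and the DDC against CDE call without any CDE or DDC array (adjusted p = 0.0644 to 0.111). Both calls were also lost with a replicate block (adjusted p = 0.115 and 0.0871) and with all 11 arrays in the fit (adjusted p = 1 and 0.783). Fzd3 differed by -1.11 ± 0.19 in DDC against UTR (adjusted p = 0.0919), Trabd2b by -0.94 ± 0.21 (adjusted p = 0.156) and Tnfrsf19 by -0.83 ± 0.16 (adjusted p = 0.113). In CDE against UTR 0 of the 97 were called, 10 had an unadjusted p under 0.05, and the lowest adjusted p was 0.655.

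For each of the 6 genes whose group means spanned at least 1 log2 unit, the gene with the closest profile was sought by Pearson correlation over the 11 arrays, which share the split between YFP+ and YFP-. For Wnt4 it was the fatty acid desaturase family gene Fads3 (0.997), for Lgr4 the neuregulin receptor Erbb4 (0.987) and for Rnf43 the sodium-hydrogen exchanger Slc9a8 (0.976). For Wnt7a it was the neutrophil chemokine Cxcl5 (0.975). Rspo3 was closest to the endothelial lectin Clec1a (0.993), followed by Robo1 (0.992) and the endothelin receptor Ednrb (0.991). Wnt2 was closest to Adam4 (0.992), and Layn was the third (0.99).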

How the data were processed

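RNA of 11 sorted cell samples was hybridised to Affymetrix MoGene 2.0 ST arrays with biotin label, per the labels. The authors deposited 1 value per gene number and array, read here as log2 expression, with base 2 inferred from the range. How background was corrected, probes summarised and arrays normalized is not given in the sources used here. Array medians ran from 5.63 to 5.76. Per the labels' protocols, perfused livers were digested, and YFP sorting of the pelleted non-parenchymal cells used a gate set on wild-type mice, leaving out dead cells. The protocol gives 4 mice for DDC, and 3 arrays were used.

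Of 25206 features, 23185 had 1 gene symbol, 0 had several and 2021 were unnamed here. All 23185 matched RefSeq (GRCm38.p6) by gene number. Some of the listed pathway and marker genes were not analysed here.

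The fits of group means were made in R 4.3.3 by lmFit and eBayes (no trend) of limma 3.58.1, two-sided, with Benjamini-Hochberg adjustment. Comparisons with YFP- used all 11 arrays (7 residual degrees of freedom), with the YFP+ mean weighting the 3 groups equally. Comparisons among YFP+ groups used the 8 YFP+ arrays (5 residual degrees of freedom). The fit was tested on simulated data. Errors are SE for differences and SD for means, and the number of arrays limits precision. The genes, lists and fits were chosen with earlier results of these data known. Named list genes are up to 4 called per class and comparison without overlap of arrays. Where none was called, they are up to 2 with the largest difference. Closest genes were those with the 3 highest Pearson correlations, and only some of them are named. Likewise, only some of the markers are named. Rspo1, Lgr6 and, for DDC, Tnfrsf19 were named after their values were seen. Alternatives were a fit of 5 arrays, weights per group or array, all 11 arrays, eBayes with trend, quantile normalization, a filter on dim genes, a replicate block and leaving out each array.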

Additional observations from a re-analysis of the deposited data

How the results depend on the processing

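The arrays are few, 2 in UTR and 3 in each other group, which limits the smallest difference that can be called. The fit of 5 arrays called 1 of the 10 genes for UTR against YFP- (Wnt4) and 7 of the 97 pathway genes, with 931 genes called in all. Weights per group, which gave YFP- 0.32 and the YFP+ groups 1.53, added Wnt2 and dropped Wnt7b for UTR against YFP-. They called 22 pathway genes for the YFP+ mean against YFP- (4193 genes in all), against 35 (7083 in all) without weights. Using all 11 arrays called 0 pathway genes in DDC against UTR and in DDC against CDE (0 and 1 genes in all). Leaving out 1 array gave 4 to 7 of the 10 genes and 15 to 31 pathway genes for UTR against YFP- (2306 to 5817 in all), 0 to 46 genes for CDE against UTR, 0 to 1 pathway genes for DDC against UTR (0 to 103), and 0 to 1 of the 10 and 0 to 1 pathway genes for DDC against CDE (16 to 211). The count of 46 was without UTR replicate 1. The causes were not tested.

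Deviations from group means correlated at -0.07 to 0.13 over 15 same-numbered pairs of arrays, 1 of them over 0.1. Over 30 different-numbered pairs the range was -0.15 to 0.15, with 2 over 0.1. Because deviations within a group sum to 0, these values are not independent and cannot exclude a pairing by replicate number. With the replicate block 4 of the 10 genes were called for UTR against YFP-, without Rspo3 and Wnt7b, and 7 for the YFP+ mean. The block called 0 pathway genes in DDC against UTR (0 genes in all) and 0 in DDC against CDE (61 in all).

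Differences that turned sign were all uncalled ones, and the causes were not tested. These are their ranges when 1 array was left out. For UTR against YFP-, Wnt9b ranged between -0.071 and 0.26, Axin2 between -0.0038 and 0.18, and Lgr5 between -0.11 and 0.0088. For the YFP+ mean against YFP-, Wnt9b ranged between -0.042 and 0.29 and Lgr5 between -0.11 and 0.0092. In CDE against UTR, Wnt2 ranged between -0.10 and 0.20, Wnt9b between -0.15 and 0.0069, Rspo3 between -0.020 and 0.21, Lgr4 between -0.24 and 0.13, and Lgr5 between -0.076 and 0.018. In DDC against UTR, Wnt7b ranged between -0.11 and 0.39, Rspo3 between -0.11 and 0.051, and Axin2 between -0.035 and 0.14. In DDC against CDE, Wnt4 ranged between -0.085 and 0.071 and was 0.072 after quantile normalization.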

Other observations

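Identical deposited values recurred across arrays. Axin2 had the value 5.61 on 4 arrays, CDE replicate 1, DDC replicate 3, UTR replicate 2 and YFP- replicate 1, equal to every deposited decimal. Wnt7b had the value 5.98 on 3 arrays, CDE replicates 1 and 3 and UTR replicate 2. Of the 10 genes, 5 had an identical value on at least 2 arrays, and of all 23185 genes 7851 (33.9%) did. No pair of arrays was identical as a whole.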
